A study of Mus musculus with 62 samples.

Results

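The 10 genes described here encode the enzymes that add and remove methyl groups on the cytosines of DNA, together with proteins that guide the enzymes or bind the mark. They were listed by name (Dnmt1, Uhrf1, Dnmt3a, Dnmt3b, Tet1, Tet2, Tet3, Tdg, Mbd1 and Mbd2) and found by mouse Entrez identifier in the count table of each of 3 tissues. They were 10 of the 18821 genes listed in at least 1 table, and each table listed all 10. RNA of liver and of 2 brain regions, striatum and prefrontal cortex, had been sequenced from female C57BL/6 mice given a mixture of polychlorinated biphenyls (PCBs, persistent chlorinated pollutants) by mouth, which the submitters name the MARBLES mixture. The dose was 0.1, 1 or 6 mg/kg, the controls took vehicle alone, and the labels name no transgene, deletion or second agent in any group. In ascending order of dose, from vehicle to 6 mg/kg, liver had 4, 4, 6 and 6 libraries, and each brain region had 4, 5, 6 and 6. The age of the mice and the length of the exposure are not given in the sources used here. Each library title carries a number, taken here as that of the animal, but nothing states that the libraries of a group came from separate mice, so p-values measure the spread between these libraries.

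DNA methylation in mammals sits mainly on cytosines followed by guanine, and it helps to keep genes and repeats silent. Dnmt1 copies the mark to the new strand at replication and is brought there by Uhrf1, while Dnmt3a and Dnmt3b place it on DNA that lacks it. The Tet enzymes oxidise the methyl group, and Tdg, a DNA glycosylase, cuts out the most oxidised forms so that repair can restore an unmodified base. Mbd1 and Mbd2 bind methylated DNA and recruit repressors. Neurons keep high levels of Dnmt3a and of the oxidised mark although they no longer divide.

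Library totals ran from 7.38M to 10.2M counts for liver, 8.72M to 12.1M for prefrontal cortex and 8.28M to 12.02M for striatum. After a filter on low counts, 8 of the 10 genes were tested in the liver (without Tet1 and Uhrf1), 8 in the prefrontal cortex (without Dnmt3b and Uhrf1) and 9 in the striatum (without Dnmt3b). Markers of the labelled tissues were present. The summed level of 5 hepatocyte genes was 79240 to 177100 CPM (counts per 1M counts of the library, M standing for mega) in the liver and that of the 4 listed in the prefrontal table was 1.24 to 35.1 CPM there. The 3 listed in the striatal table, among them Ttr, which the choroid plexus list also holds, summed to 1.76 to 4103 CPM, and Alb was not listed there. The 6 neuronal genes summed to 6083 to 7388 CPM in the prefrontal cortex, 3236 to 5685 CPM in the striatum and 6.14 to 54.5 CPM in the liver. Kupffer cell markers were not listed in either brain table. Some striatal libraries held more of the choroid plexus list than others (17.5 to 4239 CPM, a list that includes Ttr).

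Levels in vehicle mice are given first, since they show which of these genes each tissue used. Between genes they are given as CPM per kilobase of the longest coding transcript (FPKM), scaled within each tissue. The binding protein gene Mbd2 stood first in all 3 tissues, at 25.3 ± 3.86 FPKM for liver, 23.1 ± 2.003 for prefrontal cortex and 27.6 ± 2.89 for striatum (SD, n = 4 each), and in none of them did its libraries overlap with those of the next gene. In the prefrontal cortex Dnmt1 (11.1 ± 0.716 FPKM, SD, n = 4), Mbd1 (9.92 ± 0.763) and Dnmt3a (8.54 ± 0.407) followed, with overlap between neighbours, and then Tet3 (6.90 ± 0.290) and Tdg (6.47 ± 1.10), which also overlapped. Tet2 (2.15 ± 0.161 FPKM), Tet1 (0.613 ± 0.143), Uhrf1 (0.195 ± 0.0616) and Dnmt3b (0.0792 ± 0.0708) came last. The striatum gave the same order of means. In the liver Mbd2 was followed by Mbd1 (6.49 ± 1.52 FPKM) and Tdg (2.55 ± 0.223), neither of which overlapped with its neighbours. Dnmt1 (1.48 ± 0.142 FPKM), Dnmt3a (1.20 ± 0.235), Tet3 (1.15 ± 0.303) and Tet2 (1.01 ± 0.298) formed a run of overlapping neighbours. Dnmt3b (0.450 ± 0.0241 FPKM), Uhrf1 (0.0987 ± 0.0690) and Tet1 (0.00726 ± 0.000754) ended the order. Dividing by the mean transcript length instead left Mbd2 first and moved Dnmt3a to second place in both brain regions, at 35.6 ± 1.70 FPKM in the prefrontal cortex. It also moved Dnmt1 from place 4 to 7 in the liver and from 2 to 4 in the striatum. In the prefrontal cortex Mbd1 went from 3 to 5 and Tdg from 6 to 4. The middle of the order thus depends on the length used.

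**Figure D1:**
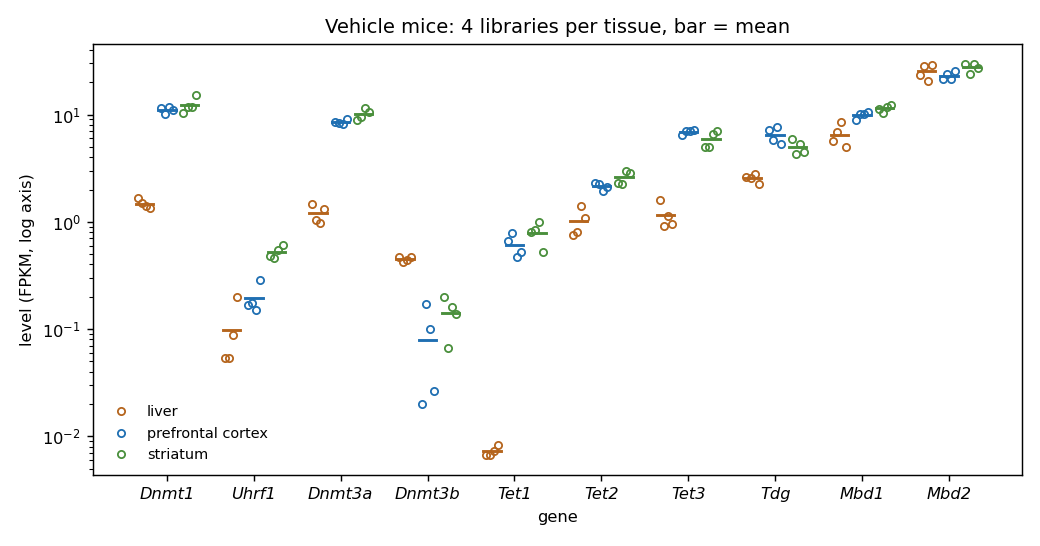
Level of each gene in the vehicle mice, in FPKM on a log axis, with 1 open circle per library (4 per tissue) and a bar at the mean. Mbd2 is highest in each tissue, and Tet1 runs from 0.00726 FPKM for liver to 0.613 for prefrontal cortex and 0.794 for striatum.

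In vehicle mice Dnmt1, Dnmt3a, Tet1 and Tet3 were lower in the liver than in either brain region, and Dnmt3b was higher, with both scalings tried. Of the 9 genes tested between liver and prefrontal cortex in vehicle mice, 7 passed an adjusted p of 0.05 by edgeR (3 higher and 4 lower in the liver), where 80.7% of all genes passed. Between liver and striatum 6 of 10 passed (2 higher and 4 lower), beside 80% of all genes. How the 2 tissues are put on 1 scale matters here. The trimmed mean of M-values (TMM) set the median difference of all genes at -0.05 (liver against prefrontal cortex) and -0.08 (liver against striatum) on the log2 scale. With total counts alone those medians were -0.88 and -0.87, and the genes called higher and lower in the liver went from 5654 and 5929 to 3731 and 8055 against the prefrontal cortex and from 5572 and 5985 to 3655 and 8098 against the striatum. Differences between liver and brain are therefore also given with total counts, a choice made after the data were seen.

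Dnmt1, which maintains methylation at replication, was lower in the liver. Its 4 vehicle libraries held 7.86, 8.24, 8.80 and 9.78 CPM in the liver, 59.5, 64.6, 66.9 and 69.4 CPM in the prefrontal cortex, and 60.6, 69.2, 69.6 and 89.1 CPM in the striatum. The log2 difference of the liver from the prefrontal cortex was -1.85 (SE 0.15, adjusted p = 6.36e-11, edgeR) and from the striatum -1.93 (SE 0.17, adjusted p = 3.04e-10), and with total counts -2.67 and -2.72. Its partner Uhrf1 was near the limit of detection, with 2, 2, 3 and 6 counts in the liver libraries, 5, 6, 7 and 9 in the prefrontal cortex and 17, 18, 20 and 22 in the striatum. The striatal libraries did not overlap with the others. Uhrf1 was 1.33 higher on the log2 scale in the striatum than in the prefrontal cortex (SE 0.45, adjusted p = 0.0378), and 1.42 higher with total counts (adjusted p = 0.0254). Without any 1 of the 4 vehicle animals that call was lost (adjusted p = 0.0628 to 0.162). The difference of the liver from the striatum was -1.32 (SE 0.61, adjusted p = 0.0518) with TMM and -2.11 with total counts (adjusted p = 0.00277). It also passed by DESeq2 (-1.51, adjusted p = 0.0203), with median-ratio size factors (adjusted p = 0.0291), without the filter on low counts (adjusted p = 0.0494) and in the vehicle libraries alone (adjusted p = 0.00984).

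Of the enzymes that methylate new sites, Dnmt3a was higher in the brain regions and Dnmt3b in the liver. Dnmt3a held 9.50, 10.04, 12.7 and 14.3 CPM in the vehicle livers, 79.7, 80.01, 82.8 and 88.2 CPM in the prefrontal cortex and 86.8, 91.7, 102 and 111 CPM in the striatum. The log2 difference of the liver was -1.77 from the prefrontal cortex (SE 0.19, adjusted p = 9.80e-09) and -1.95 from the striatum (SE 0.20, adjusted p = 5.54e-09), and -2.60 and -2.74 with total counts. Dnmt3b was sparse everywhere, with 17, 18, 19 and 21 counts in the vehicle livers against 1, 1, 4 and 7 in the prefrontal cortex and 3, 6, 7 and 9 in the striatum. Even so the liver was higher by 3.52 (SE 0.59, adjusted p = 1.00e-05) and 2.76 (SE 0.49, adjusted p = 1.87e-05), or by 2.71 and 1.98 with total counts.

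Among the Tet enzymes, Tet1 showed the widest difference between tissues. Each vehicle liver library held 1 read of Tet1, 4 reads in all, against 63, 66, 108 and 110 counts in the prefrontal cortex and 76, 120, 126 and 146 in the striatum. The fitted log2 differences were -5.24 (SE 0.52, adjusted p = 3.06e-09) and -5.55 (SE 0.55, adjusted p = 3.26e-09), or -6.02 and -6.30 with total counts, and rest on those 4 liver reads. Tet3 was also lower in the liver, at 10.04, 10.5, 12.3 and 17.2 CPM, than in the prefrontal cortex (70.6, 76.4, 76.5 and 77.5 CPM) and the striatum (54.3, 54.8, 71.2 and 77.2 CPM). These differences were -1.53 (SE 0.21, adjusted p = 4.76e-07) and -1.24 (SE 0.25, adjusted p = 0.000102), and -2.35 and -2.02 with total counts. Tet2 did not pass with TMM (-0.03, SE 0.34, and -0.24, SE 0.35) and was lower in the liver with total counts (-0.87, adjusted p = 0.0315, and -1.03, adjusted p = 0.0133).

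For Tdg against the striatum and for Mbd1 the sign differed between scalings, and for Mbd2 the size did. The glycosylase gene Tdg differed between liver and striatum by 0.16 with TMM (SE 0.21, adjusted p = 0.494) and by -0.63 with total counts (adjusted p = 0.015), and between liver and prefrontal cortex by -0.28 (SE 0.18, adjusted p = 0.152) with TMM and -1.11 with total counts (adjusted p = 2.89e-05), which passed. Mbd1 was 0.45 higher in the liver than in the prefrontal cortex with TMM (SE 0.17, adjusted p = 0.0199) and -0.38 with total counts (adjusted p = 0.0545). The call of Mbd1 was lost by DESeq2 (0.26, adjusted p = 0.154), with median-ratio size factors (0.26, adjusted p = 0.168), in the vehicle libraries alone (0.32, adjusted p = 0.066), and without vehicle animal 7 (0.30, adjusted p = 0.155) or 4 (0.42, adjusted p = 0.0724). In the first 3 of these fits Tdg was called lower in the liver than in the prefrontal cortex (-0.47, -0.47 and -0.41, adjusted p = 0.0121, 0.0205 and 0.0295), so the 7 genes called there were not the same 7. Mbd1 differed between liver and striatum by 0.30 with TMM (SE 0.18, adjusted p = 0.122) and by -0.49 with total counts (adjusted p = 0.0176). Mbd2 was higher in the liver by 1.19 (SE 0.13, adjusted p = 2.66e-08) and 0.99 (SE 0.15, adjusted p = 3.57e-06) with TMM, and by 0.35 (adjusted p = 0.0194) and 0.19 (adjusted p = 0.243) with total counts.

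The 2 brain regions were closer to each other. Of 9 genes tested, 2 passed between striatum and prefrontal cortex, Uhrf1 as above and Tdg, which was lower in the striatum (-0.47, SE 0.17, adjusted p = 0.048), where 20.8% of all genes passed. Tdg held 14.9, 15.6, 18.8 and 20.6 CPM in the striatal vehicle libraries and 18.7, 20.1, 25.3 and 26.6 CPM in the prefrontal ones, with overlap. Both calls were lost whenever any 1 of the 4 vehicle animals was left out (adjusted p of 0.0628 to 0.162 for Uhrf1 and 0.0684 to 0.177 for Tdg). For the other 7 genes the difference lay between -0.32 (Tet3) and 0.28 (Tet1).

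Against vehicle, no gene of the 10 passed at any dose in any tissue by edgeR, and none passed in a trend over the 4 dose ranks. At 6 mg/kg the counts were 0 of 8 for liver (2.8% of all genes passed), 0 of 8 for prefrontal cortex (0%) and 0 of 9 for striatum (0%). At 1 mg/kg no gene of any kind passed in any tissue, and at 0.1 mg/kg 0.0154% did in the liver and 0% in the brain regions. For the trend 4.81% of all genes passed in liver, 0.0202% in prefrontal cortex and 0% in striatum. The striatal share rested on the form of the test, since 1862 genes passed with a slope over mg/kg in place of dose rank, and 440 at 6 mg/kg against 0.1 mg/kg, but none of the 9 members in either. An unadjusted p under 0.05 was reached at 6 mg/kg by 3 of 8 in liver (24.2% of all genes), 2 of 8 in prefrontal cortex (9.27%) and 0 of 9 in striatum (15.7%). For 1 mg/kg these were 0 (8.44%), 1 (8.29%) and 0 (7.36%), for 0.1 mg/kg 0 (4.1%), 0 (6.43%) and 0 (2.53%), and for the trend 3 (25.4%), 2 (9.79%) and 0 (13.1%). By DESeq2, Tet3 in the prefrontal cortex passed at 6 mg/kg and in the trend, where 0.435% and 0.447% of the genes given an adjusted p did. No other member given an adjusted p passed in any dose comparison or trend. DESeq2 gave none to Tet1, Tet2 and Tdg at 6 mg/kg in the prefrontal cortex, to Tet1 and Uhrf1 at 6 mg/kg in the striatum, or to Uhrf1 at 1 mg/kg there. The limit this sets is uneven. On simulated counts with known changes the same edgeR test recovered 81% of 2-fold and 48% of 1.5-fold changes at 6 mg/kg for prefrontal cortex, 78% and 41% for striatum, and 33% and 3% for liver. Of the calls made on those counts, 10% were false for liver, 3.73% for prefrontal cortex and 4.03% for striatum. Each simulation changed 100 genes by each fold, while the data gave calls for 2.8% of genes in liver and 0% in the brain regions. With fewer changed genes the adjusted threshold is stricter, so these shares are no firm limit for the members.

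**Figure D2:**
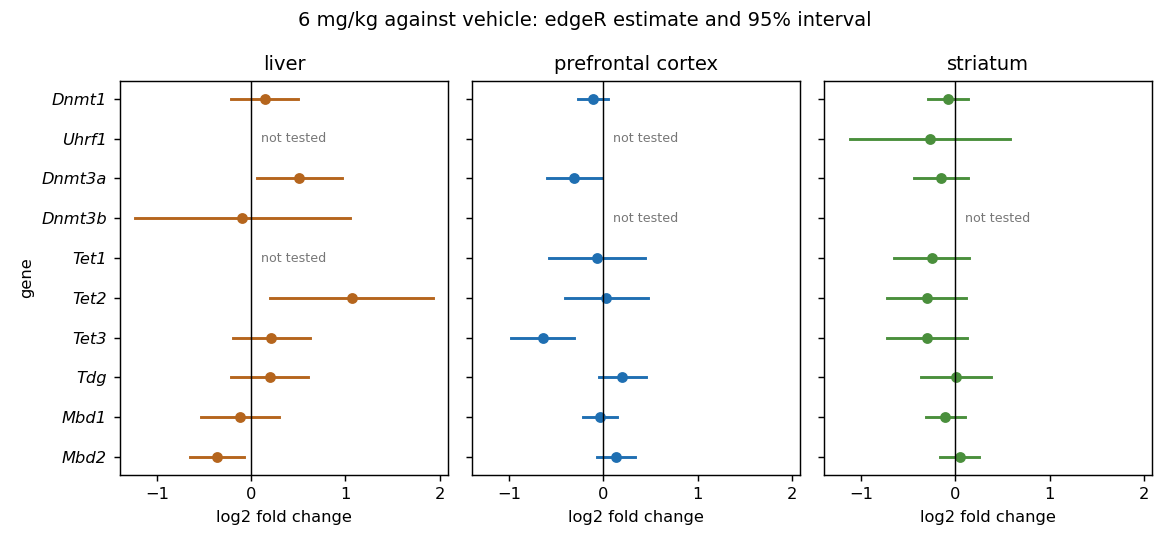
Log2 fold change of 6 mg/kg against vehicle for each gene and tissue (point) with its 95% interval (line), from edgeR. In the prefrontal cortex Tet3 lies at -0.64 with an interval of -0.97 to -0.31, and in the liver the interval of Tet2 runs from 0.20 to 1.93.

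Tet3 in the prefrontal cortex was the member that differed most clearly from vehicle. Tet3 encodes the dioxygenase that is the most abundant Tet transcript in these brain libraries. The 4 vehicle libraries held 70.6, 76.4, 76.5 and 77.5 CPM, and the 5 at 0.1 mg/kg held 51.3, 59.7, 68.1, 69.6 and 72.5 CPM. At 1 mg/kg the lowest, median and highest of 6 libraries were 39.5, 55.4 and 74.8 CPM, and at 6 mg/kg they were 31.0, 49.8 and 63.1 CPM. All 6 libraries at 6 mg/kg lay below all 4 vehicle libraries, as 1 of the 8 tested members did, beside 3.11% of all genes with groups apart in either direction. The groups at the lower doses overlapped with vehicle.

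By edgeR's quasi-likelihood test the log2 estimate was -0.23 at the lowest dose (SE 0.17, adjusted p = 0.748), -0.44 at 1 mg/kg (SE 0.16, adjusted p = 0.588) and -0.64 at 6 mg/kg (SE 0.16, adjusted p = 0.242), with adjustment over all 14838 genes tested. The slope per dose rank was -0.21 (SE 0.05, 95% interval -0.31 to -0.11, adjusted p = 0.0876). DESeq2 put Tet3 past the threshold at 6 mg/kg (-0.64, SE 0.17, adjusted p = 0.0487) and in the trend (-0.21 per rank, SE 0.05, adjusted p = 0.0182). Leaving out any 1 library of the 2 groups moved the estimate between -0.73 and -0.54, and the adjusted p by edgeR between 0.189 and 0.768.

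**Figure D3:**
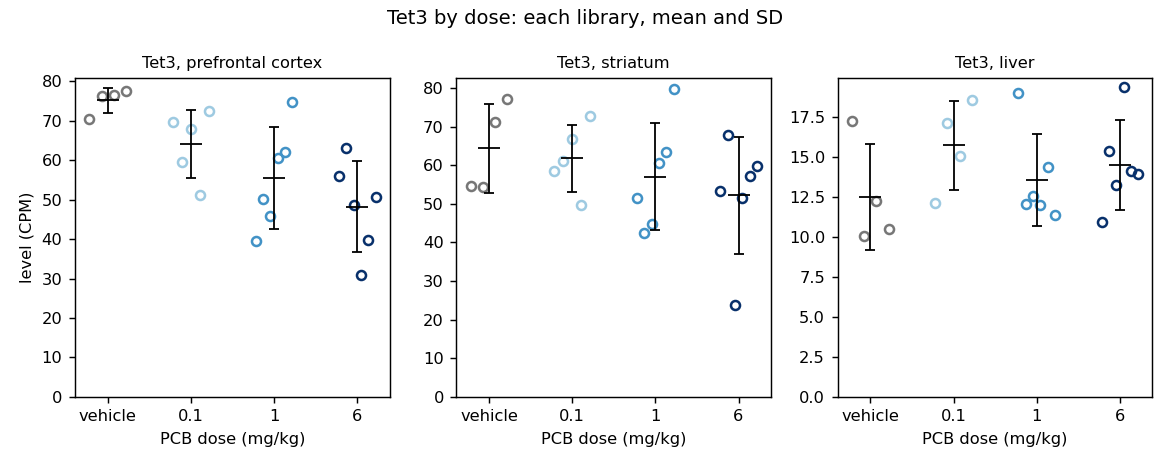
Tet3 level (CPM) in each library (circles) by dose group in the 3 tissues, with the mean and SD of each group in black. In the prefrontal cortex the 6 mg/kg libraries reach 63.1 CPM and the vehicle libraries start at 70.6 CPM, while in the striatum and the liver the groups overlap.

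Dnmt3a, the de novo methyltransferase of neurons, moved with Tet3 from library to library. In the prefrontal cortex it held 79.7, 80.01, 82.8 and 88.2 CPM in the vehicle libraries and 62.8, 71.7, 74.3, 78.2 and 85.9 CPM at 0.1 mg/kg. The lowest, median and highest were 55.6, 75.3 and 83.2 CPM at 1 mg/kg and 44.9, 65.6 and 85.7 CPM at 6 mg/kg. Of the 6 libraries at 6 mg/kg, 4 lay below the vehicle range and 2 within it. The log2 estimate at 6 mg/kg was -0.31 (SE 0.14, adjusted p = 0.502), and the slope per rank -0.10 (SE 0.04, adjusted p = 0.449).

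Over the 21 prefrontal libraries the log2 levels of Tet3 and Dnmt3a correlated at r = 0.93 (permutation p = 1e-05, the smallest that 100000 permutations can give, adjusted p = 0.000307) and rho = 0.83 (permutation p = 3e-05, adjusted p = 0.00092). Without the 2 libraries farthest from the median of Dnmt3a r was 0.87, and with each dose group centred on its own mean it was 0.95, so the relation held within groups. Among the 14837 other tested genes Dnmt3a was the closest to Tet3 in this tissue, ahead of Ankrd52 (r = 0.92, an ankyrin repeat subunit of a protein phosphatase) and Zfhx2 (r = 0.92, a zinc finger homeobox gene). At 6 mg/kg Ankrd52 was at -0.38 (adjusted p = 0.327) and Zfhx2 at -0.44 (adjusted p = 0.479). In the striatum Tet3 and Dnmt3a correlated at r = 0.88 (permutation p = 1e-05, adjusted p = 0.000307) and rho = 0.71 (permutation p = 0.00057, adjusted p = 0.00749), with r = 0.70 without the 2 farthest libraries. In the 20 livers r was 0.13 (permutation p = 0.571, adjusted p = 0.739) and rho 0.19 (permutation p = 0.418, adjusted p = 0.621). These are 3 of 92 pairs of members computed over the 3 tissues, and adjusted p-values are over the 92. By r, 7 of 28 pairs passed in the prefrontal cortex (3 of them positive), 9 of 36 in the striatum (9 positive) and 2 of 28 in the liver (2 positive). The share among pairs of all tested genes is not given, so these counts do not set the members apart from other genes. In the striatum Tet2 and Tet3 had the highest r, 0.89 (permutation p = 1e-05, adjusted p = 0.000307, rho = 0.86, permutation p = 1e-05, adjusted p = 0.00092, r = 0.75 without the 2 farthest libraries).

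**Figure D4:**
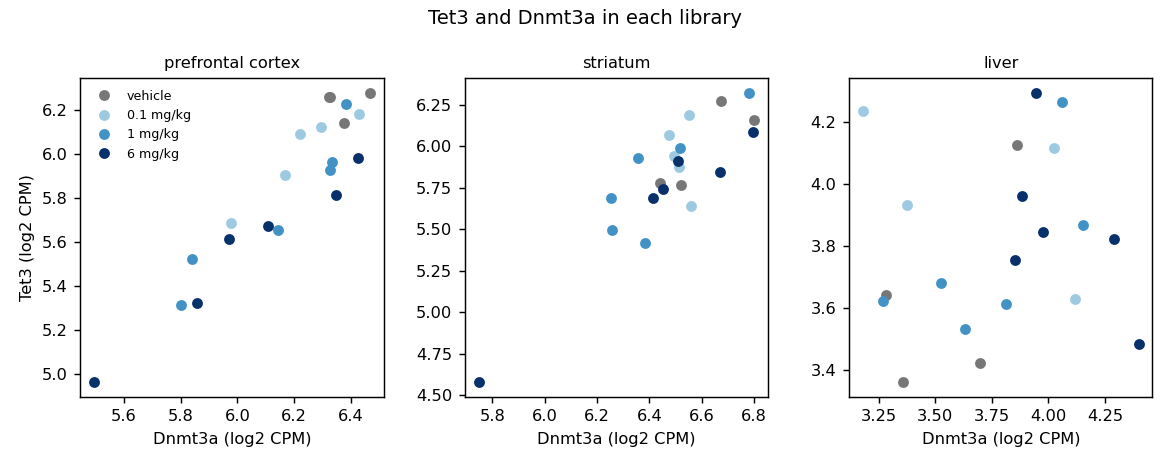
Log2 CPM of Tet3 against that of Dnmt3a, 1 point per library, coloured by dose group (vehicle grey, darker blue for a higher dose). The points form a line in the prefrontal cortex (r = 0.93) and the striatum (r = 0.88) and a cloud in the liver (r = 0.13).

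The sequence before the start sites of this pair is shown because the genes moved together. In GRCm38.p6 the Tet3 gene lies at chr6:83362373-83457208 and Dnmt3a at chr12:3801559-3914443. RefSeq (GRCm38.p6) promoter entries were found for 8 of the 10 genes. Each line gives the bases before a start, 5′ to 3′ on the gene's strand, with CG dinucleotides, the sites that these enzymes act on, in capitals. Tet3 is shown at chr6:83441679-83441928 (minus strand), before the only start that the RefSeq table holds for it, which lies inside the gene as annotated and not at its outer end. Dnmt3a is shown before its upstream start at chr12:3806730-3806979 and before its downstream start at chr12:3891494-3891727 (both plus strand), the first and the last of its RefSeq starts, the last stopping where an exon annotated in GENCODE vM21 begins.
Tet3: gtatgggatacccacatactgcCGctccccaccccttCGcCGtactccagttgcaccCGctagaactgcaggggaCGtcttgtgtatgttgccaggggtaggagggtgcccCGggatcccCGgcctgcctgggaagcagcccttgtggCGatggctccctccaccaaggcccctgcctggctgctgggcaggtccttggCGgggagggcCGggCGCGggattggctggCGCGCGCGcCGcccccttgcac
Dnmt3a, upstream start: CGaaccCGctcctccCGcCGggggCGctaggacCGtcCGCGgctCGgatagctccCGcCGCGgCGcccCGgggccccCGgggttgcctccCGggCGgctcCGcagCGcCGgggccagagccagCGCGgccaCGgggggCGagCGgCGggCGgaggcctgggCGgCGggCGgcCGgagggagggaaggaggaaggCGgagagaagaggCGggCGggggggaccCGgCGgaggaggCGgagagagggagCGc
Dnmt3a, downstream start: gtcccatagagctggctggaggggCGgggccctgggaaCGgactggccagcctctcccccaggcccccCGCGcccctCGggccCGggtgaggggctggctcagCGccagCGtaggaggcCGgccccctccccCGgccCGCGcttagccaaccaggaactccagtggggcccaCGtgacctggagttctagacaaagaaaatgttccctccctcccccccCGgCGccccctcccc
All 3 stretches were rich in CG. The Tet3 stretch held 17 CG dinucleotides in 250 bases, the upstream Dnmt3a stretch 38 in 250, and the downstream one 15 in 234. The median over 32851 mouse promoter windows was 6 in 250 bases and 5 in 234. Windows with at least as many made up 23.5%, 1.88% and 24.5%. A GC box (GGGCGG, either strand) occurred once before Tet3, 5 times before the upstream Dnmt3a start and once before the downstream one, and 32.7% of all 250-base windows and 30.4% of 234-base windows held 1 or more. The core of the dioxin response element (GCGTG, either strand) was in none of the 3 stretches, and 28.2% and 26.5% of windows held it. The counts per gene do not tell which start was used.

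Levels of these genes also moved with a property of the libraries. In each library the deviation of every gene from its tissue mean was ranked against transcript length, and this length slope correlated over the 21 prefrontal libraries with Tet2 (r = 0.85, permutation p = 1e-05, adjusted p = 0.0005), Tet1 (r = 0.68, permutation p = 0.00039, adjusted p = 0.0039), Dnmt3a (r = 0.67, permutation p = 0.0007, adjusted p = 0.00583) and Tet3 (r = 0.60, permutation p = 0.00413, adjusted p = 0.0236). For Tdg, a shorter transcript, r was -0.55 (permutation p = 0.01, adjusted p = 0.0418). By rank, Tet2 (rho = 0.78, permutation p = 4e-05, adjusted p = 0.001) and Tet1 (rho = 0.70, permutation p = 0.00067, adjusted p = 0.00837) passed. Tet3 (rho = 0.57, permutation p = 0.00769, adjusted p = 0.0579), Dnmt3a (rho = 0.55, permutation p = 0.0107, adjusted p = 0.0636) and Tdg (rho = -0.55, permutation p = 0.0114, adjusted p = 0.0636) did not. Without the 2 most extreme libraries r was 0.77 for Tet2, 0.67 for Tet1, 0.49 for Dnmt3a, 0.42 for Tet3 and -0.40 for Tdg. With each dose group centred on its own mean it was 0.87, 0.69, 0.72, 0.71 and -0.55 in the same order. Adjusted p-values are over 50 relations of members with the slopes of length and GC content. The slope of GC content, made the same way, correlated in the prefrontal cortex with Tet1 (r = -0.74, permutation p = 3e-05, adjusted p = 0.00075; rho = -0.845, permutation p = 1e-05, adjusted p = 0.0005) and Tet2 (r = -0.71, permutation p = 0.0003, adjusted p = 0.00375; rho = -0.76, permutation p = 0.00014, adjusted p = 0.00233). Without the 2 most extreme libraries these r were -0.77 and -0.73. The length slopes themselves overlapped between vehicle (0.15 to 0.46) and 6 mg/kg (-0.58 to 0.39).

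An edgeR fit with an offset for transcript length and GC content put Tet3 at -0.45 at 6 mg/kg (SE 0.10, adjusted p = 0.177) and -0.16 per rank (SE 0.03, adjusted p = 0.062), a smaller estimate with a smaller error. The same fit put Dnmt3a at -0.14 (SE 0.09, adjusted p = 0.666), where the fit without the offset had -0.31. The summed levels of none of the 10 cell type marker lists with a listed gene separated 6 mg/kg from vehicle in the prefrontal cortex. The neuronal list summed to 6359 to 7388 CPM in vehicle and 6197 to 7071 CPM at 6 mg/kg, and the oligodendrocyte list to 1808 to 2665 and 2418 to 2841 CPM. In tissue punches fewer cells of a type and less RNA per cell cannot be told apart.

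The other members showed smaller estimates in the prefrontal cortex at 6 mg/kg. Dnmt1 was at -0.11 (95% interval -0.27 to 0.05), with 55.4, 60.3 and 64.0 CPM as the lowest, median and highest library. Tet1 was at -0.07 (-0.57 to 0.44) and Tet2 at 0.03 (-0.41 to 0.47). Tdg was at 0.20 (-0.05 to 0.46), Mbd1 at -0.03 (-0.21 to 0.15) and Mbd2 at 0.13 (-0.07 to 0.33). The median over the 8 members was -0.05, beside 0.00 over all genes. At the lower doses the member farthest from 0 was Tet1 at 0.1 mg/kg, -0.50 (SE 0.26, 95% interval -1.04 to 0.04). Its libraries held 2.40, 3.99, 7.70, 8.37 and 8.52 CPM there, against 6.81, 7.53, 9.51 and 11.4 CPM in vehicle, and the 2 low libraries were 28 and 24. Those libraries had length slopes of -0.47 and -0.33 and GC slopes of 0.42 and 0.31. Tdg ran opposite to the pair described above, with r = -0.79 against Dnmt3a (permutation p = 3e-05, adjusted p = 0.00069, rho = -0.84, permutation p = 2e-05, r = -0.75 without the 2 farthest libraries). Against Tet3 it had r = -0.73 (permutation p = 0.00027, adjusted p = 0.00407, rho = -0.72, permutation p = 0.00039, r = -0.64 without the 2 farthest).

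In the striatum the oxidising enzymes gave negative estimates that did not pass. Tet2 had the smallest p at 6 mg/kg. It held 20.6, 21.0, 26.4 and 27.1 CPM in vehicle and 10.01, 19.7 and 26.3 CPM (lowest, median, highest) at 6 mg/kg, with an estimate of -0.31 (SE 0.20, 95% interval -0.72 to 0.11, adjusted p = 0.452). Tet3 held 54.3, 54.8, 71.2 and 77.2 CPM in vehicle and 23.7, 55.2 and 67.8 CPM at 6 mg/kg, with an estimate of -0.30 (SE 0.21, -0.73 to 0.12, adjusted p = 0.47). The groups overlapped for both, and the lowest library of each was that of animal 54. Without that library the Tet3 estimate was -0.15 and the Tet2 estimate -0.17. The genes closest to Tet2 across the 21 striatal libraries were Cacna1e (r = 0.93, a calcium channel subunit), Dlgap2 (r = 0.92, a postsynaptic scaffold) and Csmd1 (r = 0.92). They were at -0.49 (adjusted p = 0.279), -0.46 (adjusted p = 0.378) and -0.51 (adjusted p = 0.297).

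Tet2 in the striatum moved with transcript length as well, with r = 0.79 between its level and the length slope (permutation p = 0.00016, adjusted p = 0.00267), rho = 0.59 (permutation p = 0.00521, adjusted p = 0.0521) and r = 0.51 without the 2 most extreme libraries. The r with length also passed for Tet3 (0.68, permutation p = 0.00424, adjusted p = 0.0236), Mbd2 (-0.63, permutation p = 0.00377, adjusted p = 0.0236), Tet1 (0.59, permutation p = 0.00616, adjusted p = 0.0308) and Dnmt3a (0.58, permutation p = 0.0134, adjusted p = 0.048). By rank none of these 4 passed (rho = 0.45, -0.47, 0.44 and 0.29, permutation p = 0.0437, 0.0326, 0.0461 and 0.203, adjusted p = 0.177, 0.148, 0.177 and 0.442). Without the 2 most extreme libraries r was 0.27, -0.48, 0.25 and 0.10, so the relations of Tet3, Tet1 and Dnmt3a rested on those libraries. With the offset for length and GC content the Tet2 estimate was -0.09 (SE 0.16) and the Tet3 estimate -0.19 (SE 0.13). Tet1 went from -0.25 to 0.03 (SE 0.16), Dnmt3a from -0.15 to -0.01 (SE 0.08) and Mbd2 from 0.04 to -0.15 (SE 0.09), so the signs of Tet1 and Mbd2 turned, and none passed. Of the other striatal genes, Dnmt1 was at -0.08 (95% interval -0.29 to 0.14), Dnmt3a at -0.15 (-0.43 to 0.13), Uhrf1 at -0.27 (-1.12 to 0.58), Tet1 at -0.25 (-0.65 to 0.15), Tdg at 0.01 (-0.36 to 0.38), Mbd1 at -0.11 (-0.32 to 0.10) and Mbd2 at 0.04 (-0.16 to 0.25). The interval of Uhrf1 was the widest of these, and its libraries held 4 to 35 counts. The median over the 9 members was -0.15, beside 0.01 over all genes. The oligodendrocyte list summed to 3503 to 5333 CPM in the vehicle striata and 5331 to 7410 CPM at 6 mg/kg, and the neuronal list to 3657 to 4884 and 3236 to 3766 CPM, whose part in these estimates was not tested. No group at 6 mg/kg stood apart from vehicle for any of the 9, where 3.58% of all genes did.

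At no dose did a member pass against vehicle in the liver with all libraries, by edgeR or by DESeq2. Tet2, an oxidase that is widely expressed, held 6.97, 7.36, 10.01 and 12.9 CPM in the vehicle livers and 8.90, 11.3, 16.0 and 19.7 CPM at 0.1 mg/kg. The lowest, median and highest were 3.91, 9.77 and 21.1 CPM at 1 mg/kg and 6.60, 21.5 and 29.4 CPM at 6 mg/kg. Of the 6 libraries at 6 mg/kg, 4 lay above all vehicle libraries and 2 within or below their range. The estimate at 6 mg/kg was 1.07 (SE 0.42, adjusted p = 0.13). It passed without the library of animal 56 (1.25, adjusted p = 0.0426) and in no other leave-one-out fit.

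Dnmt3a held 9.50, 10.04, 12.7 and 14.3 CPM in the vehicle livers and 14.2, 15.4 and 20.9 CPM (lowest, median, highest) at 6 mg/kg. The lowest library at 6 mg/kg, 14.24 CPM, met the highest of vehicle, 14.33 CPM. The estimate was 0.51 (SE 0.22, adjusted p = 0.154). Mbd2, which recruits a deacetylase complex to methylated DNA, held 40.4, 45.7, 54.99 and 56.1 CPM in vehicle and 32.9, 37.9 and 43.8 CPM at 6 mg/kg, with an estimate of -0.36 (SE 0.14, adjusted p = 0.128). Its closest gene over the 20 livers was Nudt4 (r = 0.88, a diphosphoinositol phosphatase), at -0.36 (adjusted p = 0.151), followed by Vapa (r = 0.83, at -0.38, adjusted p = 0.102) and Rxylt1 (r = 0.82), which was -0.82 and passed (adjusted p = 0.032). For all 3 members the groups overlapped, as for the other 5 tested, where 6.76% of all genes stood apart.

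**Figure D5:**
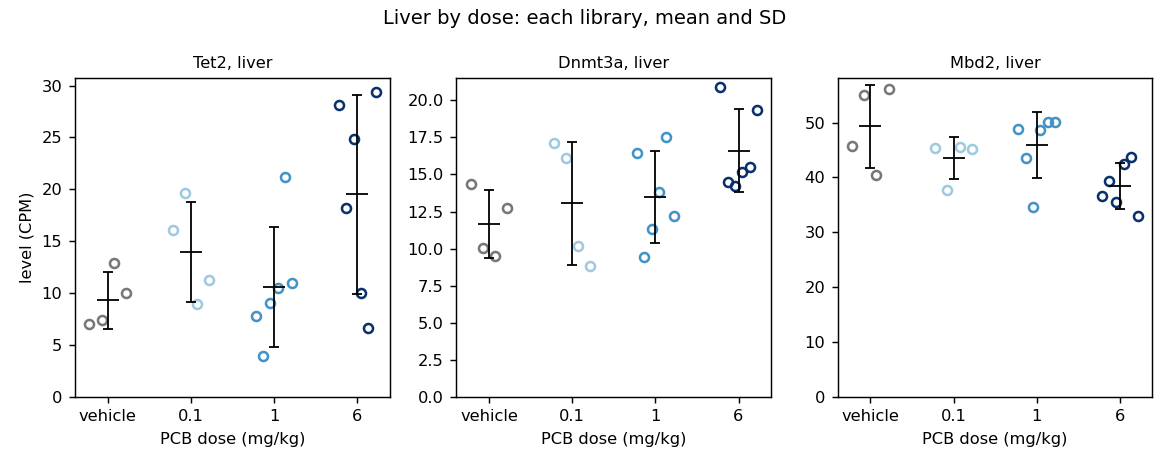
Level (CPM) of Tet2, Dnmt3a and Mbd2 in each liver library (circles) by dose group, with the mean and SD in black. Tet2 at 6 mg/kg spreads from 6.60 to 29.4 CPM, Dnmt3a starts at 14.24 CPM where vehicle ends at 14.33 CPM, and Mbd2 at 6 mg/kg reaches 43.8 CPM within the vehicle range of 40.4 to 56.1 CPM.

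Other properties of the livers differed between dose groups. A clock index, the log2 level of Dbp minus that of Arntl, which oscillate in opposite phase over the day, was 2.04 to 5.45 in the vehicle livers and 6.58 to 8.48 at 6 mg/kg, without overlap. At 0.1 mg/kg it was 6.17 to 7.98 and at 1 mg/kg 5.76 to 8.60, so it stood apart from vehicle at each dose and overlapped between the doses. The correlation of each library's deviations with GC content was -0.28 to -0.16 in vehicle and -0.02 to 0.24 at 6 mg/kg, also without overlap, and -0.15 to -0.14 at 0.1 mg/kg and -0.26 to 0.32 at 1 mg/kg. Over the 20 livers that GC slope correlated with Mbd2 (r = -0.56, permutation p = 0.0109, adjusted p = 0.0421; rho = -0.53, permutation p = 0.0167, adjusted p = 0.0833; r = -0.63 without the 2 most extreme libraries and -0.45 after centring each dose group). The length slope did with Tet3 (r = 0.58, permutation p = 0.0079, adjusted p = 0.0359; rho = 0.58, permutation p = 0.0081, adjusted p = 0.0579; r = 0.54 without 2 and 0.62 after centring). The list of microglia and macrophage genes summed to 33.6 to 46.03 CPM in vehicle and 51.0 to 81.0 CPM at 6 mg/kg (44.6 to 62.6 at 0.1 mg/kg and 38.8 to 66.4 at 1 mg/kg), the 1 of 11 marker lists that separated these groups. With the clock index as a covariate the Tet2 estimate was 0.15 (SE 0.68), Dnmt3a was 0.72 (SE 0.36), Mbd2 -0.30 (SE 0.23) and Tet3 0.66 (SE 0.31). Each adjusted p was then 0.9995. With the offset for length and GC content Tet2 was 1.12 (SE 0.41), Dnmt3a 0.37 (SE 0.21) and Mbd2 -0.48 (SE 0.15), while Tet3 went from 0.21 to 0.03 (SE 0.20) and Dnmt1 from 0.14 to -0.04 (SE 0.16). Against 0.1 mg/kg, where the clock index overlapped with that at 6 mg/kg, Tet2 was 0.48 (SE 0.40) and Dnmt3a 0.35 (SE 0.21). Mbd2 was -0.18 (SE 0.14) and Tet3 -0.12 (SE 0.20) in that fit, and none of these passed. Against vehicle the clock index and the dose cannot be told apart in these livers, and the part of the macrophage genes in the estimates was not tested.

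The remaining liver genes had estimates at 6 mg/kg with intervals across 0. Dnmt1 was at 0.14 (95% interval -0.21 to 0.50), Dnmt3b at -0.09 (-1.23 to 1.05), Tet3 at 0.21 (-0.20 to 0.63), Tdg at 0.20 (-0.21 to 0.60) and Mbd1 at -0.12 (-0.53 to 0.30). Dnmt3b rested on 1 to 34 counts a library. Tet1 was seen with 0 to 6 counts and Uhrf1 with 0 to 15 counts a library over all 20 livers. The median over the 8 tested members was 0.17, beside 0.02 over all genes, and the median size of their estimates, 0.21, stood beside 0.33 over all genes.

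Whether the effect of 6 mg/kg differed between tissues was tested directly, as an interaction in 1 edgeR fit per pair of tissues. Between liver and prefrontal cortex 0 of 9 members passed, beside 0.899% of all genes, and 4 of 9 had an unadjusted p under 0.05, beside 20% of all genes. These were Dnmt3a (0.81, SE 0.24, adjusted p = 0.0888), Tet3 (0.84, SE 0.26, adjusted p = 0.102), Mbd2 (-0.51, SE 0.17, adjusted p = 0.12) and Tet2 (1.01, SE 0.44, adjusted p = 0.207), where a positive value means a higher fold change in the liver. DESeq2 called Dnmt3a, Tet3 and Mbd2 (adjusted p of 0.0252, 0.0338 and 0.0483), where it called 6.48% of the genes given an adjusted p. Between liver and striatum 0 of 10 passed (0.0277% of all genes) and 3 had an unadjusted p under 0.05 (14.3% of all genes), and between striatum and prefrontal cortex 0 of 9 passed (0%) and 0 had an unadjusted p under 0.05 (6.43%). DESeq2 called 0 in both. On simulated counts, again with 100 genes changed by each fold, the edgeR interaction test recovered 13% of 2-fold changes between liver and prefrontal cortex. It recovered 9% between liver and striatum and 60% between striatum and prefrontal cortex. The striatal and prefrontal estimates for Tet3 thus differed by 0.33 with a 95% interval of -0.26 to 0.92.

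Genes that work beside these enzymes were counted from lists of other readers and cofactors (21 genes), demethylation partners in base excision repair and cofactor supply (18), the methyl donor cycle (19) and DNA replication (20). In the brain regions none of them passed by edgeR at any dose against vehicle or in the trend over dose ranks. In the liver at 6 mg/kg, 1 of 18 tested readers and cofactors, 1 of 16 demethylation partners, 0 of 19 methyl donor genes and 0 of 18 replication genes passed by edgeR, beside 2.8% of all genes. The gene from the list of readers and cofactors was Mbd6, a subunit of a histone deubiquitinase complex. It held 23.7, 27.99, 30.4 and 31.6 CPM in vehicle and 39.8, 55.02 and 78.4 CPM at 6 mg/kg, without overlap. It rose by 0.96 (SE 0.19, adjusted p = 0.0134), and by 0.30 per dose rank. The partner was Gadd45a, a stress gene tied to active demethylation, which held 4.40, 11.1, 11.8 and 15.1 CPM in vehicle and 16.4, 24.4 and 37.6 CPM at 6 mg/kg, also without overlap. It rose by 1.33 (SE 0.35, adjusted p = 0.0442). With the offset for length and GC content Mbd6 was 0.57 (adjusted p = 0.102) and no longer passed, and Gadd45a was 1.46 (adjusted p = 0.0467). With 2 groups alone neither passed (0.97, adjusted p = 0.059, and 1.34, adjusted p = 0.0798), nor did either against 0.1 mg/kg (0.68, adjusted p = 0.163, and 1.01, adjusted p = 0.246). Without the filter on low counts Gadd45a was 1.32 (adjusted p = 0.0577), and with the offset the slope of Mbd6 per dose rank was 0.17 (adjusted p = 0.111). With the clock index as a covariate neither passed (0.70 for Mbd6 and 1.23 for Gadd45a, adjusted p = 0.9995 each). Mbd6 also lost its call without vehicle library 3 (0.99, adjusted p = 0.0656) or 4 (0.88, adjusted p = 0.0824), and Gadd45a without any 1 of 8 libraries (vehicle 3, 4, 7 and 8, and 52, 53, 54 and 58 at 6 mg/kg).

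Genes of these lists with small p that did not pass in the main edgeR fit are given next, not for every list in each tissue. In the liver at 6 mg/kg the methyl donor genes with the smallest p were Pemt, which makes phosphatidylcholine from the methyl donor (-0.68, SE 0.22, adjusted p = 0.0788), and Cbs, which draws homocysteine out of the cycle (-0.50, SE 0.24, adjusted p = 0.194). Of the replication genes they were Pcna, the clamp that brings Dnmt1 to the fork (-0.73, SE 0.23, adjusted p = 0.0762), and the division marker Mki67 (1.30, SE 0.48, adjusted p = 0.115). By edgeR Pemt passed with a slope over mg/kg (-0.11, adjusted p = 0.0419), where 483 genes did. Mki67 passed in the edgeR trend with median-ratio size factors (0.48 per dose rank, adjusted p = 0.0499), where 656 genes did. DESeq2 called Pcna (-0.73, adjusted p = 0.0365) and Pemt (-0.68, adjusted p = 0.0284) lower at 6 mg/kg, where it called 9.72% of the genes given an adjusted p, and in its trend per dose rank, where it called 9.86%, Pcna (-0.23, adjusted p = 0.0286), Pemt (-0.20, adjusted p = 0.0497) and, upward, Mki67 (0.49, adjusted p = 0.0243). In the prefrontal cortex Zbtb4, a zinc finger reader of methylated DNA, was at -0.34 (SE 0.10, adjusted p = 0.312), Zfp57 at 0.39 (SE 0.20, adjusted p = 0.556), the glycosylase gene Smug1 at -0.33 (SE 0.10, adjusted p = 0.332) and Polb at 0.34 (SE 0.13, adjusted p = 0.423). In the striatum the glycosylase and reader Mbd4 was at -0.71 (SE 0.18, adjusted p = 0.208) and the reader Zbtb33 at -0.48 (SE 0.13, adjusted p = 0.208). Zbtb33 passed against 0.1 mg/kg (-0.57, adjusted p = 0.0279) and with a slope over mg/kg (-0.09, adjusted p = 0.00872). At 6 mg/kg in the striatum an unadjusted p under 0.05 was reached by 7 of 19 readers and cofactors, 2 of 17 demethylation partners, 1 of 14 methyl donor genes and 1 of 17 replication genes, beside 15.7% of all genes. In the same order these counts were 3 of 18, 3 of 16, 2 of 19 and 3 of 18 for liver (24.2% of all genes) and 1 of 19, 4 of 17, 1 of 14 and 2 of 16 for prefrontal cortex (9.27%).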

How the data were processed

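The deposited files are 3 tables of raw read counts per gene, 1 per tissue, with mouse Entrez identifiers as rows and libraries as columns (62 libraries). Per the submitters' processing notes, FastQC, HISAT2 and the build mm10 were used, and their versions, the counting tool, the annotation and whether strand was used are not given in the sources used here. Per the labels' protocols, tissue was taken as punches in the brain and RNA was purified with TRIzol and columns, and mRNA was enriched by poly(A) capture or rRNA removal, without saying which. The smallest row total was 10 in each deposited table, so genes with fewer counts are not listed. At least 99.95% of identifiers matched a symbol.

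Counts were filtered with filterByExpr, scaled with TMM and fitted per tissue over all 4 dose groups with edgeR 4.0.16 (robust quasi-likelihood test, R 4.3.3) and Benjamini-Hochberg adjustment over all genes tested, with 0.05 as the threshold. Tissues were compared on joined counts. CPM were scaled within each tissue. Log2 CPM for correlations used a prior count of 2, and permutation tests were two-sided with 100000 draws. The genes named beside the members are the 3 closest by Pearson's r to the member with the smallest p in each tissue, and, of each list, those that passed or else some of those with the smallest p, of which a few are not reported here. The test was checked on simulated counts. Alternatives were DESeq2 1.42.0, size factors by median ratio, fits without the filter or with offsets for transcript length and GC content, a clock covariate, 2 groups alone, another reference group, a replicate block and leaving out each library, and total-count scaling and offsets in the trend were added after the data were seen. Replicates differed by more than counting noise (smallest chi-square per degree of freedom 2.94). The members and gene lists were chosen with earlier results of these data known. Figures were drawn with matplotlib 3.10.9.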

Additional observations from a re-analysis of the deposited data

Results flagged for a closer look

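Of 100 groups of 4 to 6 libraries, 4 held a library far from the others by Dixon's test, where chance gives about 5 (1 in 20). In the liver at 0.1 mg/kg, Mbd2 was 37.72 CPM in animal 25 and 45.26 to 45.56 CPM in the others. In the prefrontal cortex, Tet3 was 70.56 CPM in vehicle animal 3 and 76.44 to 77.49 CPM in the other vehicle libraries. In the striatum at 6 mg/kg, Tet3 was 23.7 CPM in animal 54 and 51.4 to 67.84 CPM in the others. In the striatum at 0.1 mg/kg, Tdg was 11.86 CPM in animal 28 and 18.98 to 20.87 CPM in the others.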

How the results depend on the processing

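Over 1778 refits of dose and trend estimates of the 10 genes, 1775 kept their side of the threshold and 3 passed it, Tet3 in the prefrontal cortex by DESeq2 at 6 mg/kg and in the trend, and Tet2 in the liver without animal 56. DESeq2 thus called 1 gene of the 5 it gave an adjusted p at 6 mg/kg and 1 of 8 in the trend, and 3 of 9 (Dnmt3a, Mbd2 and Tet3) in the interaction of liver and prefrontal cortex, where edgeR called 0. Between striatum and prefrontal cortex in vehicle mice, no filter on low counts left 1 call (Uhrf1) in place of 2, and total-count scaling also left 1 (Uhrf1). Total-count scaling turned the sign of Mbd1 in the liver against the prefrontal cortex (-0.38) and the striatum (-0.49), and of Tdg against the striatum (-0.63). The causes were not tested. Leaving out 1 library gave 0 to 1 calls in the liver at 6 mg/kg, 6 to 7 between liver and prefrontal cortex, 6 to 7 between liver and striatum, 0 to 0 between striatum and prefrontal cortex, and 0 to 0 in every other comparison. Over all genes in the liver at 6 mg/kg, 363 were called by edgeR, 1138 by DESeq2, 241 without the filter, 130 with the offset, 0 with the clock covariate, 5 against 0.1 mg/kg, 13 with 2 groups alone and 3 to 1302 without 1 library. For the liver trend 624 became 1228 by DESeq2, 178 with the offset and 79 to 1317 without 1 library. In the striatum 0 became 26 by DESeq2 and 440 against 0.1 mg/kg at 6 mg/kg, and 14 by DESeq2 and 1862 with the slope over mg/kg in the trend. For prefrontal cortex 0 became 27 by DESeq2 and 16 against 0.1 mg/kg at 6 mg/kg, and 3 became 65 by DESeq2, 5 with the offset and 6 with the slope over mg/kg in the trend. The interaction of liver and prefrontal cortex went from 129 to 928 by DESeq2 and to 2 with the block, and that of liver and striatum from 4 to 134 and 0. Leaving out 1 library moved them to 2 to 762 (762 without animal 55 and 392 without 56, both at 6 mg/kg) and to 0 to 12.

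With the animal number as a replicate block, 7 genes were called between liver and prefrontal cortex, 7 between liver and striatum (Uhrf1 added at -1.38, adjusted p = 0.0177), 2 between striatum and prefrontal cortex and 0 in each interaction. Same-numbered libraries of 2 tissues correlated at a mean of -0.01 (liver and prefrontal cortex), 0.01 (liver and striatum) and 0.11 (striatum and prefrontal cortex) (over single pairs, -0.09 to 0.22 in the last). The labels do not say that a number marks a mouse, and not every pair of numbers was above 0.1, so the block was kept as an alternative. Uhrf1, Dnmt3b and liver Tet1 are limited by counts of under 40 in every library.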
